A study of Mus musculus with 12 samples.

Results

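Gtpbp1, Gtpbp2, Pelo, Hbs1l, Abce1, Ascc3, Nemf and Ltn1 encode proteins that free ribosomes stuck on an mRNA and dispose of the unfinished protein. They were the 8 of 38924 genes in the deposited tables whose gene name equalled one of these symbols, and all 8 passed the filter on low counts, which kept 17995 genes. RNA of whole spinal cord was sequenced from 12 mice aged 1 week on a B6J;CAST background, 1 library per mouse. There were 3 female and 3 male mice carrying the P278KY allele of Gars over a wt allele, against 3 female and 3 male wt mice. B6J stands for C57BL/6J and CAST for a wild-derived inbred strain. The mouse numbers of the titles identify the libraries: female P278KY 4, 7 and 10, male P278KY 3, 5 and 13, female wt 1, 2 and 14, and male wt 6, 9 and 19. Gars encodes glycyl-tRNA synthetase, which loads glycine onto its tRNA, and dominant alleles of the human gene cause Charcot-Marie-Tooth neuropathy. The allele is carried in every cell, and the tissue is the whole cord, so motor neurons are a small part of what was measured. A lower level in such a sample cannot be told apart from fewer cells of the type that expresses the gene.

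As background, a ribosome stops when the tRNA it needs is missing or held back, when the mRNA is broken, or when it runs into the ribosome ahead. PELO and HBS1L, relatives of the proteins that end translation, enter the empty site of a stopped ribosome, and the ATPase ABCE1 splits the ribosome into its subunits. ASCC3 is the helicase that takes collided ribosomes apart. NEMF then binds the large subunit that still holds an unfinished chain and brings in LTN1 (Listerin), the ubiquitin ligase that marks the chain for destruction. GTPBP1 and GTPBP2 are related GTPases that help a paused ribosome to go on. In mice, loss of Gtpbp2 together with the C57BL/6J variant of a brain arginine tRNA gives ribosome stalling and neurodegeneration, and mutations of Ltn1 or Nemf give motor neuron disease. Mutant GARS has been reported to hold on to glycine tRNA and to stall ribosomes at glycine codons. The labels do not give the tRNA genotype of these mice.

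Expected counts, the estimated numbers of fragments per gene, summed to between 27713981 and 43219891 per library. The allele is not a deletion, and Gars RNA was 131 ± 7.58 CPM (counts scaled to the library total) in P278KY cords and 125 ± 6.72 CPM in wt cords (SD, n = 6 each), which does not check the labels. Fgf21, a hormone gene induced by cellular stress, had 15 to 48 counts in the P278KY libraries and 0 to 1 in the wt libraries. The sex labels of 2 wt libraries went against their sex-linked RNA: in female wt 14 the X-inactivation RNA Xist was at 0.533 CPM and the Y-linked Ddx3y at 45.1 CPM, and in male wt 19 they were at 857 CPM and 0.0233 CPM. Results by labelled sex are therefore followed by the values without both. Of 3 motor neuron markers found, 3 were fitted lower and 0 were called, and their sum was 8.34 to 13.3 TPM (the authors' level per transcript length) in P278KY cords and 10.6 to 20.3 TPM in wt cords. Of 5 tested markers of dorsal root ganglion neurons, which lie beside the cord, 5 were fitted lower and 0 were called, and the 6 listed summed to 33.8 to 57.1 TPM in P278KY cords and 42.2 to 248 TPM in wt cords. Both wt maxima were those of female wt 14, and without it no library was above 15.6 TPM for motor neuron or 67.8 TPM for ganglion markers. The 4 Hox genes of cord position summed to 105 to 131 TPM in P278KY cords and 102 to 135 TPM in wt cords. Skeletal muscle RNA differed widely between libraries: 10 of 10 markers were fitted higher with 0 called, and they summed to 112 to 3424 TPM in P278KY cords and 11.8 to 1320 TPM in wt cords. Schwann cell markers summed to 19.6 to 1924 TPM in P278KY cords and 167 to 2715 TPM in wt cords, with 5 of 5 fitted lower and 0 called.

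The genes lie apart in the genome, on GRCm38 with GENCODE M21 positions. Gtpbp1 is at chr15:79690845-79721479 (plus strand), Gtpbp2 at chr17:46161032-46169370 (plus), Pelo at chr13:115088355-115090186 (minus) and Hbs1l at chr10:21295979-21368898 (plus). Abce1 is at chr8:79683462-79711740 (minus), Ascc3 at chr10:50592669-50851485 (plus), Nemf at chr12:69310522-69357165 (minus) and Ltn1 at chr16:87376651-87432612 (minus). The 1832 bp of Pelo lie inside the integrin gene Itga1 on the same strand, with 0 bases of exon shared, and 739 bases of Pelo exon are shared with the predicted gene Gm49395, which was not analysed here. Nemf shares 166 bases of exon with Klhdc2 on the opposite strand, Gtpbp1 shares 254 with the antisense Gm26884, and Hbs1l shares 266 with the antisense 4930455C13Rik. Gm49395 and 4930455C13Rik were not among the genes counted. Gm49395 lies on the strand of Pelo, so its reads over the shared exon could not be divided from those of Pelo. Whether reads of 4930455C13Rik, on the strand opposite to Hbs1l, were kept apart depends on the authors' strand setting, which was not given. Expected counts were whole numbers for Pelo and Nemf in every library and fractional for Gtpbp1 in every library. Counts of these 4 genes stay uncertain over the shared bases.

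The 250 bases before the RefSeq start of 4 of the genes are shown because they form the pairs that varied together most strongly across the 12 libraries, Abce1 with Ltn1 in the same direction and Gtpbp2 with Ascc3 in opposite directions. Sequences are from RefSeq on GRCm38.p6, read 5′ to 3′ on the gene's strand at chr8:79711741-79711990 (minus) for Abce1, chr16:87432607-87432856 (minus) for Ltn1, chr17:46160782-46161031 (plus) for Gtpbp2 and chr10:50592419-50592668 (plus) for Ascc3. Capitals mark TGACG on either strand, the core of the element bound by CREB and ATF proteins, or the whole element TGACGTCA where it occurs.
Abce1: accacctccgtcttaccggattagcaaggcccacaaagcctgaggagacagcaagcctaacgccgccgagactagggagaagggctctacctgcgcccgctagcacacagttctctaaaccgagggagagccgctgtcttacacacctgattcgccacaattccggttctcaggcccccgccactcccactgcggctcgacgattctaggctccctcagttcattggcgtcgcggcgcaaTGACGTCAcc
Ltn1: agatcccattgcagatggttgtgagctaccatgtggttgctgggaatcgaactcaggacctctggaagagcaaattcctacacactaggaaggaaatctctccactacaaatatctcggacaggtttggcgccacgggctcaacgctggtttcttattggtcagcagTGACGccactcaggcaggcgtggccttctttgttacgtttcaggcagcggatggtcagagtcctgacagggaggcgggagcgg
Gtpbp2: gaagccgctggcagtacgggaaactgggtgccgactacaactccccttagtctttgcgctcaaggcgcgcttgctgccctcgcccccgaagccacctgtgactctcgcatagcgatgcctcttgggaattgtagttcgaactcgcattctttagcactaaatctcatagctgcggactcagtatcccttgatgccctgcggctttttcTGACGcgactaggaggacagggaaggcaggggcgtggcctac
Ascc3: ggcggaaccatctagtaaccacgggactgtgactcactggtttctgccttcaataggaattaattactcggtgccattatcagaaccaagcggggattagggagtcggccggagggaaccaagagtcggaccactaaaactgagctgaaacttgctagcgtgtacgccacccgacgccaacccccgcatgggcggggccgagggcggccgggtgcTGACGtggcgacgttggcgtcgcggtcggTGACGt
In Abce1 the whole element stands 2 bases from the start, in Ltn1 and Gtpbp2 TGACG occurs once, and in Ascc3 it occurs at 2 places near the start. TGACG was found in the windows of 6 of the 8 genes, the exceptions being Gtpbp1 and Nemf, against 17.9% of 27025 promoter windows and 25.1% of the 12281 tested genes matched to one. TGACGTCA, which contains TGACG, was found in Abce1 alone of the 8, against 1.62% of all windows and 2.56% of the matched tested genes. The ATF4 element TGATGNAA was in 0 of the 8 windows, against 3.53% of all windows and 2.03% of the matched tested genes. The ETS site CCGGAAGT was also in 0 of the 8, against 2.93% and 5.02%. At shares this low, 0 of 8 cannot show a lack of either element. All were searched on both strands. The windows of the 8 genes held 10 to 29 CG dinucleotides (median 18), against a median of 6 over all windows, and of the 8807 windows with 10 to 29 of them 30% held TGACG, which itself contains a CG. The letters to search were chosen after the sequences had been seen, and a match is a string of letters and not a measured binding site.

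All 8 genes were expressed in the cord of 1-week-old mice, at levels that spanned 7.75-fold. By mean TPM over the 12 libraries (± SD), the order was Gtpbp2 with 58.5 ± 5.98, Abce1 with 55.1 ± 2.56, Hbs1l with 45.7 ± 1.61, Nemf with 27.4 ± 1.40, Gtpbp1 with 20.5 ± 1.66, Ltn1 with 17.4 ± 1.43, Pelo with 12.8 ± 1.16 and Ascc3 with 7.56 ± 0.845. Gtpbp2 thus ranked at the 85.05th percentile of the tested genes by TPM and Ascc3 at the 38.9th. Each gene was above the next in 12 of 12 libraries, except that Gtpbp2 was above Abce1 in 8 of 12, so those neighbours were not separated beyond their spread. This order uses the authors' transcript lengths. For Nemf that length was 3721 bases, against 4732 bases for its coding transcript in GENCODE M21. The longer length would lower the TPM of Nemf, and whether Nemf then stays above Gtpbp1 in every library was not tested. Within the partnerships the level per length was unequal, with Hbs1l above Pelo and Nemf above the ligase Ltn1 in 12 of 12 libraries. Of the genes for taking ribosomes apart, which are not partners, the ATPase Abce1 was above the helicase Ascc3 in 12 of 12 libraries.

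**Figure D1:**
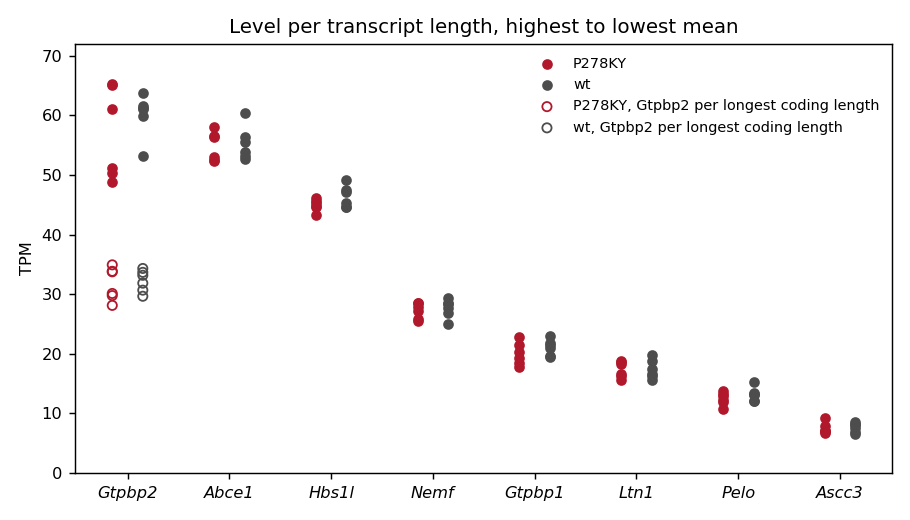
Level of each gene in TPM (y axis) in the P278KY libraries (red) and the wt libraries (grey), 1 filled point per library, with genes in order of mean level along the x axis. Open circles give Gtpbp2 scaled to its longest coding transcript, where it averages 31.99 TPM in place of 58.5; the genotypes overlap for every gene.

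The place of Gtpbp2 at the top rested on its transcript length. It had 17 transcripts in the files, against 1 or 2 for each of the others, and in GENCODE M21 4 of its transcripts are coding and 7 retain an intron. The mean length that the authors' estimate used was 1588 to 1895 bases, against 2966 bases for the longest coding transcript. Scaled to that coding length, Gtpbp2 was at 31.8 ± 2.77 TPM in P278KY cords and 32.2 ± 1.82 TPM in wt cords (SD, n = 6 each). It was then below Abce1 and Hbs1l in 12 of 12 libraries and above Nemf in 11 of 12. Those genes were left at the authors' lengths, which for Nemf was shorter than in GENCODE M21. The length estimate of Gtpbp2 also varied between libraries. It was 1895, 1830 and 1738 bases in male P278KY 3, 5 and 13 and 1643, 1647 and 1588 bases in male wt 6, 9 and 19, without overlap, and 1640 to 1751 bases in female P278KY and 1743 to 1760 bases in female wt libraries, with overlap. Of the 11231 tested genes whose estimated length varied, 10.9% had male groups that did not overlap in length, and 22.5% without female wt 14 and male wt 19, so such a separation was common. Gtpbp2 TPM was 48.8, 51.2 and 61.1 in male P278KY cords and 63.8, 61.1 and 61.3 in male wt cords, while its CPM, which does not use length, was 51.01, 50.7 and 55.9 in male P278KY cords and 50.8, 53.8 and 51.9 in male wt cords. No test was made of the length, which is an estimate of the mix of transcripts.

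Taken over both labelled sexes, RNA levels of the rescue genes in P278KY cords were within narrow bounds of those in wt cords. By edgeR's quasi-likelihood test with labelled sex as a term, 0 of 8 passed an adjusted p of 0.05, against 0.00556% of all tested genes (1 gene, Fgf21), and 0 of 8 had an unadjusted p under 0.05, against 4.09% of all tested genes. Fitted changes were positive for 5 and negative for 3, with a median log2 fold change of 0.01 (P278KY over wt), beside -0.01 over all 17995 genes. The 8 log2 fold changes lay between -0.04 and 0.03, and their 95% intervals between -0.20 and 0.17. The groups overlapped for 8 of 8, against 0.222% of tested genes whose groups did not overlap. In simulated data of the same design, 43 of 50 genes raised by 0.5 on the log2 scale and 36 of 50 lowered by as much were called, all drawn from genes above 10 CPM. All changed genes were planted in 1 run, which eases the adjusted threshold, whereas the real test called 1 gene. Counts were also drawn independently for each gene, without shared differences in tissue make-up between libraries. These shares therefore do not give the power of the real test.

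**Figure D2:**
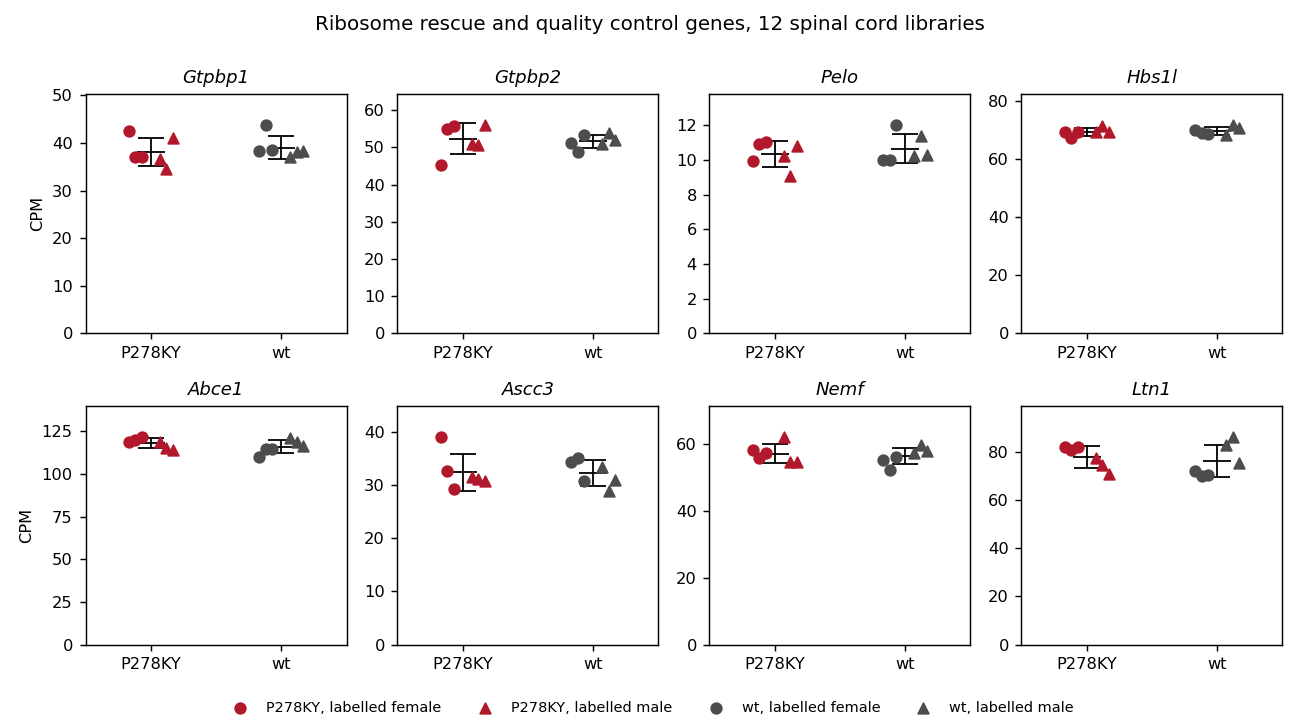
CPM (y axis, from 0) of each gene in the 6 P278KY libraries (red, left) and the 6 wt libraries (grey, right), with circles for labelled females, triangles for labelled males, and bars for the mean ± SD. The genotypes overlap in all 8 panels; Hbs1l spans 67.2 to 71.5 CPM over all libraries, and Ltn1 lies at 80.8 to 82.1 CPM in female P278KY and at 70.1 to 72.1 CPM in female wt libraries.

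Among the factors that enter a stopped ribosome, Pelo was the least abundant by counts. It had 9.93, 10.9 and 11.03 CPM in female and 10.2, 9.06 and 10.8 CPM in male P278KY cords, against 9.996, 9.98 and 11.98 CPM in female and 10.2, 11.4 and 10.3 CPM in male wt cords. Its log2 fold change was -0.04 ± 0.07 (SE), with an interval of -0.20 to 0.12 (edgeR adjusted p = 1.00), the widest of the 8, which allows a level up to 13.2% lower or 8.54% higher. Its GTPase partner Hbs1l had 69.2, 67.2 and 69.2 CPM in female and 69.3, 71.2 and 69.2 CPM in male P278KY cords, against 69.9, 68.8 and 68.5 CPM in female and 68.1, 71.5 and 70.7 CPM in male wt cords. The groups lay on top of each other. The log2 fold change of Hbs1l was -0.01 ± 0.03, with an interval of -0.07 to 0.06, so a change of more than 5.05% down or 4.21% up was outside it.

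Of the proteins that take ribosomes apart, Abce1 had the highest counts of the 8. It had 119, 119.7 and 122 CPM in female and 119, 115 and 114 CPM in male P278KY cords, against 110.1, 115 and 114 CPM in female and 121, 119 and 117 CPM in male wt cords. The 3 labelled female P278KY libraries lay above the 3 labelled female wt libraries, and the male groups overlapped. Over both sexes the log2 fold change was 0.03 ± 0.04, with an interval of -0.05 to 0.10. Ascc3 had 39.1, 32.7 and 29.3 CPM in female and 31.5, 31.1 and 30.7 CPM in male P278KY cords, against 34.3, 35.1 and 30.7 CPM in female and 33.4, 28.9 and 30.9 CPM in male wt cords. One library, female P278KY 4, stood above the others, and the log2 fold change of 0.01 ± 0.07 (-0.14 to 0.15) became -0.05 without it.

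For the disposal of the unfinished chain, Nemf had a lowest, median and highest value of 54.5, 56.5 and 62.1 CPM in P278KY cords and 52.3, 56.7 and 59.5 CPM in wt cords. Its log2 fold change was 0.02 ± 0.04, with an interval of -0.08 to 0.11. The ligase Ltn1 had 82.1, 80.8 and 82.1 CPM in female and 77.4, 74.5 and 70.7 CPM in male P278KY cords, against 72.1, 70.1 and 70.6 CPM in female and 82.9, 86.3 and 75.3 CPM in male wt cords. The P278KY mean was above the wt mean in labelled females and below it in labelled males. Pooled over both, Ltn1 averaged 77.9 ± 4.64 CPM in P278KY cords and 76.2 ± 6.83 CPM in wt cords, a log2 fold change of 0.03 ± 0.06 (-0.10 to 0.17).

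The elongation GTPases did not separate either. Gtpbp2 had 45.2, 55.0 and 55.8 CPM in female and 51.01, 50.7 and 55.9 CPM in male P278KY cords, against 51.1, 48.8 and 53.3 CPM in female and 50.8, 53.8 and 51.9 CPM in male wt cords. The P278KY libraries held both the lowest value, in female P278KY 4, and the 3 highest, and the log2 fold change was 0.02 ± 0.06 (-0.10 to 0.14). Gtpbp1 had a lowest, median and highest value of 34.5, 37.0 and 42.5 CPM in P278KY cords and 37.1, 38.4 and 43.7 CPM in wt cords. Here 4 of 6 P278KY libraries were below every wt library, and the log2 fold change was -0.03 ± 0.06 (-0.16 to 0.09). With the mean log2 CPM of the 10 skeletal muscle markers as a further term, the log2 fold changes of the 8 genes lay between -0.05 and 0.09 and 0 were called.

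**Figure D3:**
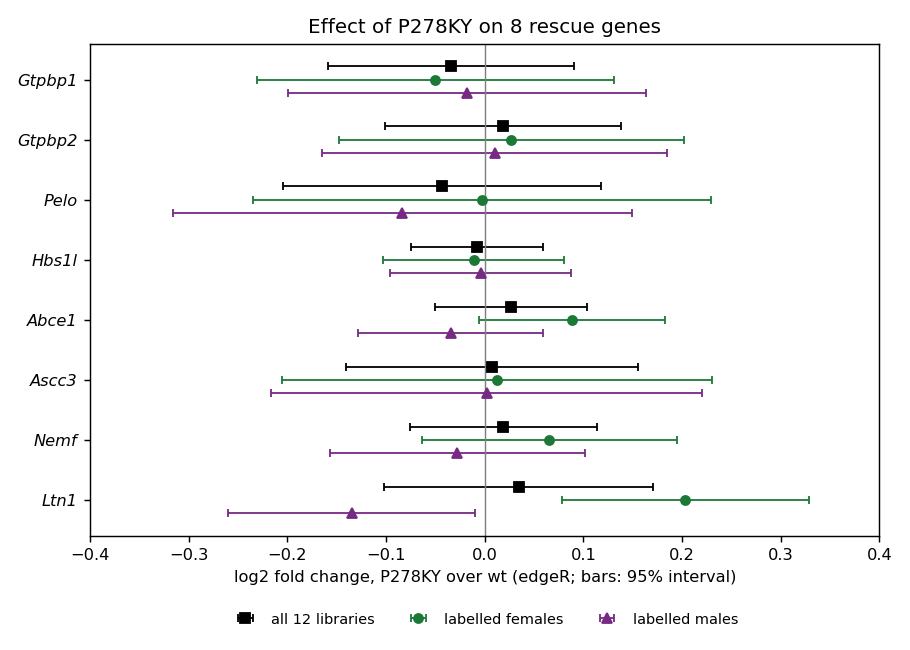
Log2 fold change of P278KY over wt (x axis) for each gene (rows), with the 95% interval from edgeR, over all 12 libraries (black squares), in labelled females (green circles) and in labelled males (purple triangles). All squares lie between -0.04 and 0.03; only for Ltn1 do the female interval (0.08 to 0.33) and the male interval (-0.26 to -0.01) both leave 0 out, on opposite sides.

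Of the 8 genes, Ltn1 had the largest difference in fitted genotype effect between the labelled sexes. In labelled females its log2 fold change was 0.20 ± 0.06 (edgeR unadjusted p = 0.00433, adjusted p = 0.272), and 3 of 3 P278KY libraries were above every wt library. In labelled males it was -0.13 ± 0.06 (edgeR unadjusted p = 0.0373, adjusted p = 0.942), with the P278KY and wt groups overlapping. The test of the difference, the female effect minus the male effect, gave 0.34 ± 0.08 (edgeR unadjusted p = 0.00146, adjusted p = 0.22) and did not pass. Under DESeq2 the same difference was 0.34 with an adjusted p of 0.0229, where DESeq2 called 1.55% of all tested genes (279), and over 15 alternative edgeR fits it ranged from 0.29 to 0.40 with adjusted p from 0.105 to 0.47. Without female wt 14 and male wt 19, the libraries whose sex-linked RNA went against their labels, it was 0.40 (edgeR adjusted p = 0.151). Without both, the effect was 0.20 ± 0.06 in labelled females (edgeR adjusted p = 0.334) and -0.19 ± 0.06 in labelled males (edgeR unadjusted p = 0.0086, adjusted p = 0.42). Such differences were common in these libraries: 10.9% of tested genes had an unadjusted p under 0.05 for the interaction, against 1 of the 8 rescue genes, and edgeR called 0 of the 8. Without both libraries these shares were 12.7% of tested genes and again 1 of 8.

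Within labelled females, 2 of the 8 genes, Ltn1 and Abce1, had groups that did not overlap, against 15.3% of tested genes, and 1 of 8 had an unadjusted p under 0.05, against 10.7% of tested genes. Abce1 averaged 120.1 ± 1.52 CPM in female P278KY cords and 113 ± 2.53 CPM in female wt cords (SD, n = 3 each), a log2 fold change of 0.09 ± 0.04 (edgeR unadjusted p = 0.064, adjusted p = 0.496). Within labelled males 0 of 8 were separated, against 11.5% of tested genes, and 1 of 8 had an unadjusted p under 0.05, against 4.91%. Between labelled females and males, over both genotypes, the log2 differences of the 8 genes lay between -0.05 and 0.11, and 0 of 8 had an unadjusted p under 0.05, against 4.6% of tested genes.

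Without female wt 14 and male wt 19, each wt group held 2 libraries. In labelled females 3 of the 8 genes (Nemf, Ltn1 and Abce1) then did not overlap, against 27% of tested genes, and 1 of 8 had an unadjusted p under 0.05, against 11% of tested genes. The median log2 fold change of the 8 genes in labelled females was 0.08 without both, beside 0.02 with them, and Abce1 was at 0.10 ± 0.05 (edgeR adjusted p = 0.492). In labelled males 2 of 8 (Ltn1 and Abce1) did not overlap, with P278KY lower, against 26.7% of tested genes, and 1 of 8 had an unadjusted p under 0.05, against 8.72%. The log2 differences between labelled females and males lay between -0.05 and 0.13, with 0 of 8 at an unadjusted p under 0.05, against 4.52% of tested genes. In these fits edgeR called 0 of the 8 genes, whereas over all genes it called 11 for females, 4 for males, 5 for the interaction and 10 for sex, against 0 each with all 12 libraries.

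The genes differed in how much their levels varied between libraries. Hbs1l had an SD of log2 CPM of 0.0258 over the 12 libraries, and its highest CPM was 1.06 times its lowest. Just 3 of the 17995 tested genes had a lower SD, and counting error alone would give 0.0305 at its depth, so no spread beyond counting was measurable. Abce1 had an SD of 0.0429, with 116 genes lower, against 0.0235 from counting alone. Nemf followed with 0.0653, Gtpbp2 with 0.0875, Gtpbp1 with 0.0961, Ltn1 with 0.105, Pelo with 0.107 and Ascc3 with 0.122, and the median of all tested genes was 0.163. For Pelo counting error alone gives 0.0787 and for Ltn1 0.0290, so of these similar spreads that of Ltn1 lay further above counting error.

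**Figure D4:**
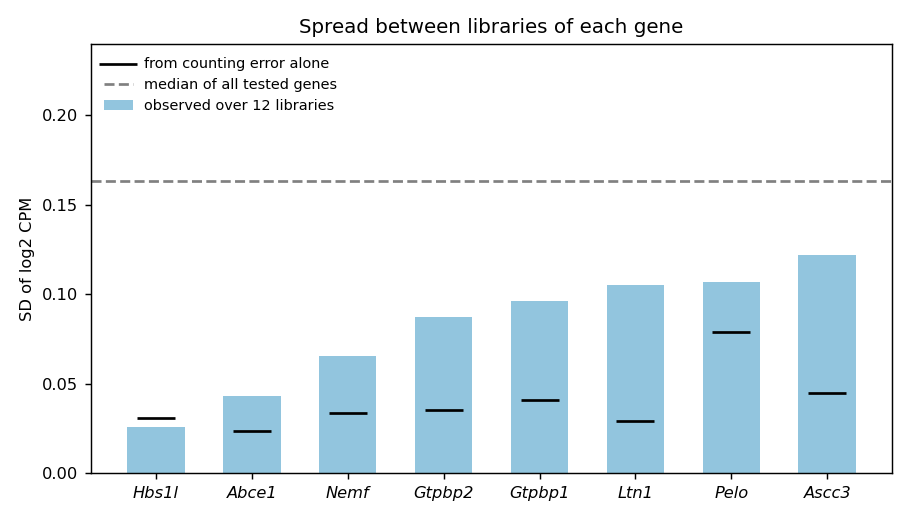
SD of log2 CPM over the 12 libraries (bars, y axis) for each gene (x axis), with the SD expected from counting error alone (black lines) and the median of all tested genes (dashed line at 0.163). All 8 bars are under the dashed line, which covers tested genes of every level, including those with few counts and a larger counting error. The bar of Hbs1l, at 0.0258, is also under its counting line.

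Across the 12 libraries the 8 genes did not vary as 1 unit. Of the 28 pairs, 13 correlated positively and 15 negatively in log2 CPM, with a median Pearson r of -0.05. The pair that binds a stopped ribosome together, Pelo and Hbs1l, had an r of -0.27 (permutation p = 0.391, adjusted over the 28 pairs 0.866). Hbs1l had no measurable spread beyond counting error, so its pairs, which are among the 28, cannot show whether it varies with the others. Nemf and Ltn1 had an r of 0.62 (adjusted p by permutation = 0.231). Abce1 and Ltn1 varied together, with an r of 0.84 (permutation p = 0.00099, adjusted 0.015) and a Spearman rho of 0.85 (adjusted p by permutation = 0.0239). Without the 2 libraries farthest from the Abce1 median, female wt 1 and female P278KY 10, r was 0.91, and it was 0.93 within the 6 P278KY and 0.80 within the 6 wt libraries. Gtpbp2 and Ascc3 ran in opposite directions, with an r of -0.84 (permutation p = 0.00107, adjusted 0.015) and a rho of -0.77 (adjusted p by permutation = 0.0457). Without female P278KY 4 and male P278KY 13, r was -0.67, and it was -0.85 within the P278KY and -0.92 within the wt libraries. Female P278KY 4, with the lowest Gtpbp2 and the highest Ascc3, also had the lowest oligodendrocyte marker sum, 10333 TPM, and the part of this in the relation was not tested. The next lowest sum was 10734 TPM in male wt 6, which had 50.8 CPM of Gtpbp2 and 33.4 CPM of Ascc3, and the highest was 18314 TPM in female P278KY 7. By rank but not by r, Gtpbp2 also followed Pelo (rho 0.83, adjusted p by permutation = 0.0239, r 0.62 with 0.231) and Pelo ran against Ascc3 (rho -0.75, adjusted p by permutation = 0.0471, r -0.48 with 0.45). The permutations treat the 12 libraries as exchangeable, although their tissue make-up differed. How often other pairs of genes reach such an r here was not measured, so a trait particular to these genes cannot be read from these values.

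**Figure D5:**
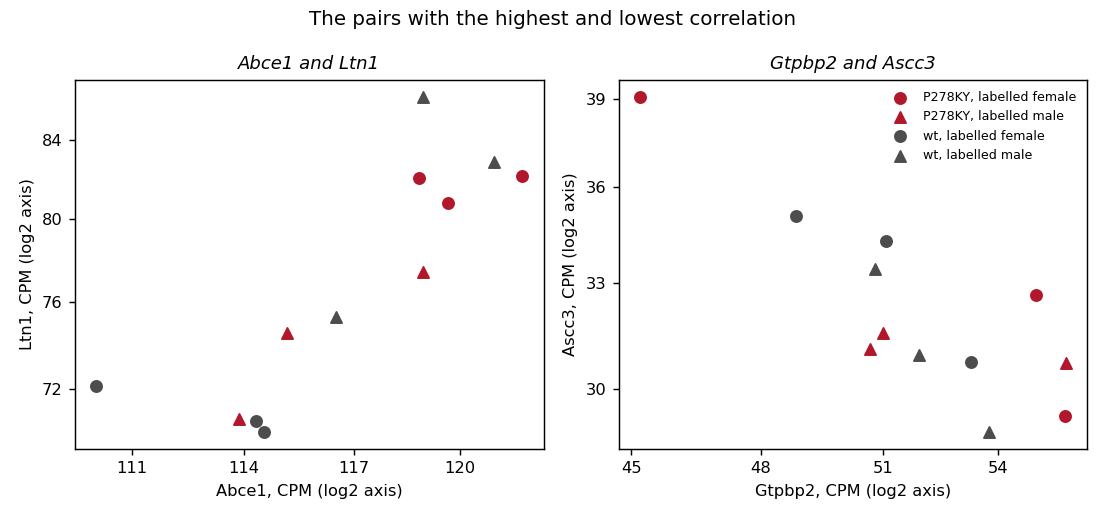
Ltn1 against Abce1 (left panel) and Ascc3 against Gtpbp2 (right panel), in CPM on log2 axes, 1 point per library, red for P278KY and grey for wt, circles for labelled females and triangles for labelled males. Points of both genotypes run upward together on the left (r = 0.84) and downward on the right (r = -0.84), with female P278KY 4 at the upper left end of the right panel.

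The balance of partners was compared as a ratio of TPM within each library. Gtpbp2 over Gtpbp1 was 2.86 ± 0.415 in P278KY cords and 2.87 ± 0.312 in wt cords (SD, n = 6 each, exact permutation p = 0.916). That ratio depends on the length used for Gtpbp2: scaled to the longest coding transcript it was 1.60 ± 0.191 in P278KY cords and 1.53 ± 0.123 in wt cords (n = 6 each, exact permutation p = 0.528). Hbs1l over Pelo was 3.63 ± 0.343 in P278KY cords and 3.54 ± 0.261 in wt cords (n = 6 each, exact permutation p = 0.645). Ltn1 over Nemf was 0.637 ± 0.0378 in P278KY cords and 0.630 ± 0.0375 in wt cords (n = 6 each, exact permutation p = 0.747). The size of that ratio rests on the authors' length for Nemf, 3721 bases, against 4732 bases in GENCODE M21. The 3 tests were two-sided over every split of the libraries into 6 and 6, and the smallest p they can give is 0.00216, and adjusted over the 3 ratios each p was 0.916.

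The wider pathway was read from 7 lists holding 43 genes, all of which were tested. None was called by edgeR or by DESeq2, and 2 of 43, Zak and Rchy1, had an unadjusted p under 0.05, against 4.09% of all tested genes. Fitted changes were positive for 18 and negative for 25, with a median of -0.01. Of 8 collision sensors and signalling genes 2 were fitted higher and 6 lower. Zak (Map3k20), the kinase that signals from collided ribosomes, was at 22.03 ± 4.03 CPM in P278KY cords and 17.0 ± 2.73 CPM in wt cords, a log2 fold change of 0.38 ± 0.12 (edgeR unadjusted p = 0.00864, adjusted p = 1.00). Zak was 17.7, 25.8 and 19.6 CPM in female and 27.9, 19.4 and 21.8 CPM in male P278KY cords, against 14.7, 15.1 and 17.4 CPM in female and 16.6, 16.0 and 22.2 CPM in male wt cords. Skeletal muscle RNA also differed between these libraries. The muscle markers summed to 417, 2022 and 112 TPM in female and 3424, 618 and 1063 TPM in male P278KY cords, against 101, 11.8 and 58.5 TPM in female and 19.3, 46.4 and 1320 TPM in male wt cords. In each genotype and labelled sex but female wt, the library with the most muscle RNA had the highest Zak. In female wt, the library with the most muscle RNA had the lowest Zak, at 14.7 CPM. With the mean log2 CPM of the muscle markers as a further term, the log2 fold change of Zak was 0.07 ± 0.12. The muscle markers were themselves fitted higher in P278KY cords, so this term cannot tell muscle RNA from genotype. A muscle source of the Zak difference was not tested. Without that term and without female wt 14 and male wt 19, the log2 fold change of Zak was 0.50 (edgeR adjusted p = 0.324). Eif2ak4 (GCN2), which phosphorylates eIF2α when ribosomes stall, was at 31.8 ± 1.57 CPM in P278KY cords and 33.4 ± 1.01 CPM in wt cords, a log2 fold change of -0.07 ± 0.04.

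The partners that act directly beside the 8 genes were as close. Of the 3 other subunits of the ASC-1 complex, in which ASCC3 works, 2 were fitted higher and 1 lower, with log2 fold changes of 0.05 ± 0.04 for Trip4 and -0.02 ± 0.04 for the ubiquitin-binding subunit Ascc2. Of 8 partners of NEMF and LTN1, 4 were fitted higher and 4 lower. Rchy1 (Pirh2), a ligase that takes chains with tails added by NEMF, was at 32.3 ± 1.80 CPM in P278KY cords and 29.7 ± 1.60 CPM in wt cords, and in 4 of 6 P278KY cords it exceeded all wt values (log2 fold change 0.12 ± 0.04, edgeR unadjusted p = 0.0152, adjusted p = 1.00). Tcf25, the mammalian counterpart of yeast Rqc1 beside LTN1, was the most abundant named partner, at 486 ± 25.6 CPM in P278KY cords and 501 ± 44.4 CPM in wt cords (log2 fold change -0.04 ± 0.06). Of 7 termination and recycling factors 4 were fitted higher and 3 lower, among them the release factor Gspt1 (eRF3a) at 0.05 ± 0.04 and the large-subunit binding factor Eif6 at -0.07 ± 0.06. Of 5 genes for decay of the mRNA 3 were fitted higher and 2 lower, with the SKI complex genes Ttc37 at 0.04 ± 0.06 and Skiv2l at -0.02 ± 0.04. Of 6 ligases and deubiquitinase genes of stalled ribosomes 2 were fitted higher and 4 lower, with the deubiquitinase Usp10 at -0.06 ± 0.04 and its partner G3bp1 at 0.06 ± 0.05. Of 6 elongation factors 1 was fitted higher and 5 lower, with the selenocysteine factor Eefsec at -0.11 ± 0.06 and Eif5a, which helps the ribosome past hard-to-join residues, at -0.05 ± 0.04, all as log2 fold changes ± SE. The medians of the 7 lists lay between -0.05 and 0.04.

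The genes whose log2 CPM followed each rescue gene most closely over the 12 libraries were taken from 10320 named genes with at least 10 CPM, as a description. Abce1 was followed by Sp3 (r = 0.96) and Zbtb6 (r = 0.94), and Ltn1 by Rc3h1 (r = 0.95) and Phc3 (r = 0.95). Gtpbp2 was followed by Heatr3 (r = 0.92) and Map3k3 (r = 0.92), and Ascc3 by Asxl3 and Auts2 (r = 0.92 each). For Pelo they were Pik3cd (r = 0.89) and Hps3 (r = 0.87), for Gtpbp1 Morn4 (r = 0.88) and Kctd13 (r = 0.83), for Hbs1l Stard3nl (r = 0.84) and Sash1 (r = 0.83), and for Nemf Taf1b (r = 0.76) and Cycs (r = 0.75). No rescue gene was among the closest genes listed for another. So few genes were listed out of 10320 that this absence cannot show whether the rescue genes vary together. Each r was picked from the top of 10320 values over 12 libraries, and how high chance alone would reach was not measured. Hbs1l had no measurable spread beyond counting error, so the genes listed for it cannot show what it varies with. All such values share library, depth and scaling.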

How the data were processed

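Stranded libraries of poly(A) RNA were made with KAPA kits and sequenced in pairs on a NextSeq, per the labels' protocols. The submitters' processing notes name RSEM 1.2.12 and Bowtie2 2.2.0. Genome build, annotation and strand setting: not given in the sources used here. The deposited expected count is an estimated count, often fractional, per the file headers, and the authors' TPM scales it by library total and estimated transcript length. FPKM values were not used.

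Expected counts were rounded, filtered with filterByExpr over the 4 groups and scaled with TMM. edgeR 4.0.16 quasi-likelihood tests (robust, R 4.3.3) covered all 17995 genes with labelled sex as a term, or with 1 mean per group for effects within sex, with Benjamini-Hochberg adjustment. SE is the log2 fold change over the square root of F. CPM uses TMM-adjusted totals, and log2 CPM a prior count of 2. The common biological coefficient of variation was 23.9%. Correlations used 100000 permutations. Replicates are separate mice, with numbers that differ in every group.

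The genes, lists and alternatives were chosen with earlier results of these data known. Named genes are the 8, Gars and Fgf21, the 2 of each list with the smallest p, and the 2 closest genes of each of the 8. Alternatives were RLE factors, library totals, other filters, DESeq2 1.42.0, limma 3.58.1 (voom, and trend on log2 TPM with a pseudocount of 1 or 0.1), other covariates, a threshold of 0.1, and libraries left out. The scaling of Gtpbp2 to its coding length, and the overlap counts without female wt 14 and male wt 19, were chosen after seeing the data. In simulated counts of the same design, 48 of 50 genes lowered and 49 of 50 raised by 1 on the log2 scale were called. Genes changed by 0.5 and by 1 were planted in the same run.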

Additional observations from a re-analysis of the deposited data

Results flagged for a closer look

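In 42 groups of 6 libraries checked, 3 held a library that stood apart from the other 5; chance flags about 1 in 20 groups. Gtpbp1 was 43.7 CPM in female wt 2, where the other wt libraries had 37.1 to 38.6 CPM. Gtpbp2 was 53.1 TPM in the same library, where the other wt libraries had 59.9 to 63.8 TPM. Ascc3 was 39.1 CPM in female P278KY 4, where the other P278KY libraries had 29.3 to 32.7 CPM.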

How the results depend on the processing

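No paired analysis was possible because the groups share no mouse number. The count of 0 of 8 genes called for genotype held under all 25 alternatives, and over them the log2 fold changes lay between -0.09 and 0.09. The count over all genes, 1 in the main test, was 33 with DESeq2 (27 higher, 6 lower), 2 with no sex term, 0 with CPM above 1 in 6 libraries, 0 without female wt 14 and male wt 19, and 1 to 3 with 1 library left out; the cause was not tested. For the interaction, DESeq2 called 1 of the 8, Ltn1 (0.34), and 279 of all genes (1.55%), where edgeR called 0. The signs of changes this near 0 were not stable. Ascc3 was at -0.0080 with library totals, -0.022 without both libraries, -0.031 with log2(TPM + 1), -0.035 with log2(TPM + 0.1) and -0.047 to 0.049 with 1 library left out. Nemf was at -0.0087 with the muscle term, -0.021 in both TPM fits and -0.0051 to 0.038 with 1 library left out. Gtpbp2 was at -0.085 with log2(TPM + 1), -0.086 with log2(TPM + 0.1) and -0.0058 to 0.058 with 1 library left out. In both TPM fits, which moved the median of all genes to -0.04, Ltn1 was at -0.0050 (pseudocount 1) and -0.0052 (0.1), and Abce1 at -0.012 in each. The log2 ratio of Gtpbp2 over Gtpbp1, -0.01 in TPM, was 0.051 in CPM, 0.051 with the coding length of Gtpbp2, 0.023 without both libraries and -0.071 to 0.062 with 1 left out; that of Hbs1l over Pelo was -0.013 to 0.058 with 1 left out, and that of Ltn1 over Nemf was -0.021 without both libraries and -0.0039 to 0.043 with 1 left out. Pelo, at 248 to 440 counts per library, is the gene most limited by depth.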
